A study of Mus musculus with 6 samples.

Results

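The 3 Vehicle tumours are described here, out of 6 tumours in the series. They were chosen by their treatment label and are numbered Vehicle 1, Vehicle 2 and Vehicle 3 in the order of their records. The tumours came from the 60577 line, a mouse cell line of high-grade serous ovarian cancer that was injected into the abdominal cavity of syngeneic mice and left to establish for 21 days. All animals of the series then had 3 weekly cycles of carboplatin, a platinum drug that crosslinks DNA. The protocol names daily gavage for 84 days only for the CSF1R inhibitor AZD7507, so for the Vehicle animals the make-up and schedule of the gavage are not given in the sources used here. Tumours were collected at the humane endpoint. The labels give no strain, age or genotype, do not say from which abdominal site a tumour was cut, and tie no tumour to an animal. The spread between the 3 libraries may therefore hold differences of site or of dissection, which cannot be told apart from differences between tumours. All 3 tumours had carboplatin, so nothing here describes the model before that drug. No comparison with AZD7507 was made.

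High-grade serous cancer spreads over the surfaces of the abdominal cavity and grows on the omentum, a fatty apron beside the stomach, spleen and pancreas. A piece of such a tumour holds cancer cells together with fibroblasts, vessels, matrix and leukocytes, of which macrophages are often the most common. Its cancer cells usually carry epithelial keratins and the surface proteins mesothelin and CA125, and they stain for the transcription factors WT1 and PAX8. Mesothelial cells, which line the cavity, share several of these genes.

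The table held 16344 genes in each library as log2 RPKM, which is read density per length of gene on a log2 scale. Each step of 1 is a doubling. In all 3 libraries the median was 2.32, the highest value was 10.16 and 174 genes lay above 7. Of the distinct values in Vehicle 1, 99.9% were also present in Vehicle 3, so a value in these files stands for a rank within its library and not for an amount of RNA per cell. Depth is unknown because the values are not counts. A value below 0 means less than 1 RPKM, where a handful of reads can decide it. No test was run: the tumours form 1 group, and an exact sign permutation over 3 tumours cannot give a 2-sided p under 0.25.

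Vehicle 2 stood apart from the other two tumours. Across genes, Pearson's r was 0.98 between Vehicle 1 and Vehicle 3, 0.94 between Vehicle 1 and Vehicle 2 and 0.93 between Vehicle 2 and Vehicle 3. Genes are not independent replicates, and the 3 pairs share libraries. A gap of more than 1 log2 unit separated Vehicle 1 from Vehicle 3 in 451 genes (2.76%) and Vehicle 1 from Vehicle 2 in 1650 genes (10.1%). Enzymes of the pancreatic acinar cell were at the top of Vehicle 2 and below 1 log2 RPKM in the others, as described below with their sequences. For the lists in which Vehicle 2 moved the level most, the level without it is given too.

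The most abundant transcripts were non-coding RNAs, pseudogenes and genes of the cytoskeleton, matrix and innate immunity. Of the 20 genes with the highest mean, 8 were protein-coding, 4 were pseudogenes and 8 were long or small non-coding RNAs. Models named Gm plus digits made up 6 of the 20, among them the gene ranked first, and these are counted but not named. The 20 highest genes took 5.99% of the summed RPKM of Vehicle 1 and the 100 highest took 16.4%.

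Malat1, a nuclear long non-coding RNA on chromosome 19 at 5795690 to 5802672 (GRCm38, minus strand), was at 9.87, 9.68 and 9.87 in Vehicle 1, 2 and 3. Rn7sk, the small RNA that holds the elongation factor P-TEFb inactive, was at 9.55, 9.08 and 9.55. Rpph1, the RNA of the tRNA-processing enzyme RNase P, was at 9.27, 8.79 and 9.20. Neat1, the scaffold of nuclear paraspeckles, was at 9.08, 8.37 and 8.94, and Rmrp, the RNA of RNase MRP, was at 8.82, 8.63 and 8.75. These RNAs all occur in forms without a poly(A) tail, and the libraries were made by depletion of ribosomal RNA without selection for such tails.

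Among the protein-coding genes at the top, Ahnak, a very large scaffold protein, was at 9.03, 8.55 and 9.14. Tmsb4x, which encodes the actin-binding peptide thymosin beta 4, was at 8.94, 8.69 and 9.08, and Actb, cytoplasmic beta actin, was at 8.79, 8.75 and 8.98. Fn1, the matrix glycoprotein fibronectin on chromosome 1 at 71585520 to 71653200 (minus strand), was at 8.98, 8.90 and 8.82 with a mean of 8.90 ± 0.08 (SD, n = 3). C3, the central complement protein, was at 8.90, 8.24 and 8.72. Apoe, an apolipoprotein that macrophages make in large amounts, was at 8.66, 8.50 and 8.69. H2-D1, a class I major histocompatibility chain, was at 8.63, 8.53 and 8.53, and Rsrp1, a gene of little known function, was at 8.86, 8.46 and 9.03. Xist, the RNA that coats the inactive X chromosome, ranked just outside the 20 and was at 9.14, 7.67 and 8.86.

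Vehicle 2 was the lowest of the 3 libraries in all of the genes just named except Fn1 and H2-D1. In that library 8 of its own 20 highest genes, and 11 of its 50 highest, were acinar enzyme genes. With the acinar list left out, Rn7sk had rank 5 in Vehicle 2, and 19 of the 20 genes with the highest mean were shared with a ranking that left Vehicle 2 out.

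**Figure D1:**
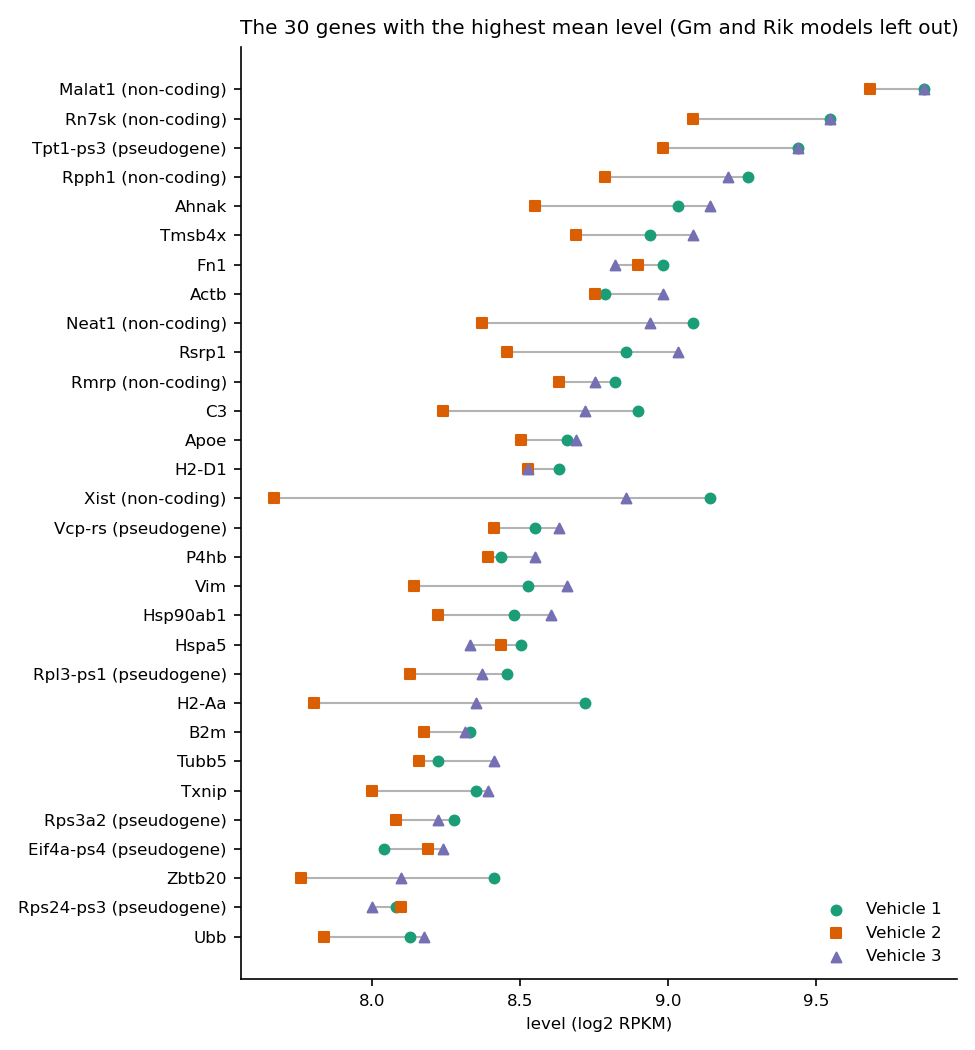
The 30 genes with the highest mean level, models named Gm or Rik left out, with the log2 RPKM of each library on the horizontal axis; the grey line joins the lowest and highest library. Malat1 was highest of those shown, and Xist had the widest range, from 7.67 in Vehicle 2 to 9.14 in Vehicle 1.

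Pseudogenes were far more common at the top of the table than in the whole of it. They made up 37 of the 100 highest genes and 7.59% of all 16344. A processed pseudogene is a copy of a spliced messenger RNA that was pasted back into the genome without introns. Reads from the parent's RNA can match such a copy as well as the parent. The clearest case is Tpt1, which encodes the abundant translation-related protein TCTP, and its copy Tpt1-ps3. The copy was at 9.44, 8.98 and 9.44, whereas Tpt1 itself was at 2.47, 2.66 and 2.90. Rpsa, a protein of the small ribosomal subunit, was at 2.89, 2.41 and 2.76 and its copy Rpsa-ps10 at 8.21, 7.78 and 8.13. To show how alike a copy and its parent are, the first 90 coding bases of Tpt1 and coding bases 130 to 219 of Rpsa are printed beside the same stretch of the copy, from the GRCm38 transcripts of GENCODE M21, 5′ to 3′ on the coding strand. Capitals mark bases that differ.
Tpt1: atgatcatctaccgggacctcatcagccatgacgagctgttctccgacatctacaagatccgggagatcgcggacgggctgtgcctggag
Tpt1-ps3: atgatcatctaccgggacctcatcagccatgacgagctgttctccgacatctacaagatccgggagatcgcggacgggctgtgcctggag
Rpsa: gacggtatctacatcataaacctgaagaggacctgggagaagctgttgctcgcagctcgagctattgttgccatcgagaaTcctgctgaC
Rpsa-ps10: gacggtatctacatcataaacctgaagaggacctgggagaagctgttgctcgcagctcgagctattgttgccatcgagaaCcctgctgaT

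Over its full length of 519 bases, Tpt1-ps3, on chromosome 6 at 99877816 to 99878334 (minus strand), was identical to the Tpt1 transcript, whose gene lies on chromosome 14 at 75845093 to 75848525 (plus strand). Rpsa-ps10, on chromosome 3 at 150072658 to 150073542 (minus strand), differed from Rpsa, on chromosome 9 at 120127689 to 120132369 (plus strand), at 6 of 885 bases. How the authors treated reads that match several places is not given in the sources used here, so the levels of such pairs are uncertain for both members.

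The same pattern ran through the named pairs. Of 149 pseudogenes whose name gives their parent and whose parent also had a value, 101 were higher than the parent on average and 95 were higher in all 3 libraries. Over the best matching stretch of each pair, the median identity was 98.99%, and 134 of the 149 pairs were at least 95% identical. In some pairs that stretch was short, such as 10 of 668 bases for Rpl13-ps1. Among 51 pairs of ribosomal protein genes the pseudogene was higher in 39, with a median difference of 2.68 log2 units against 1.49 over all pairs. Rpl3-ps1 was at 8.46, 8.13 and 8.37, while its parent Rpl3, a protein of the large subunit, was at 2.89, 2.58 and 2.99. The 26 cytoplasmic ribosomal protein genes had a median level of only 2.99 ± 0.09, although Rpl8 was at 7.86, 7.77 and 7.93. Translation factors were higher, with the elongation factors Eef1a1 at 7.92, 7.74 and 7.92 and Eef2 at 7.78, 7.86 and 7.76. Genes encoded by the mitochondrial genome had no values, so the respiratory chain is seen only through its nuclear subunits (3.88 ± 0.12), led by the ATP synthase genes Atp5b at 7.08, 7.36 and 7.22 and Atp5a1 at 6.96, 7.19 and 6.76.

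**Figure D2:**
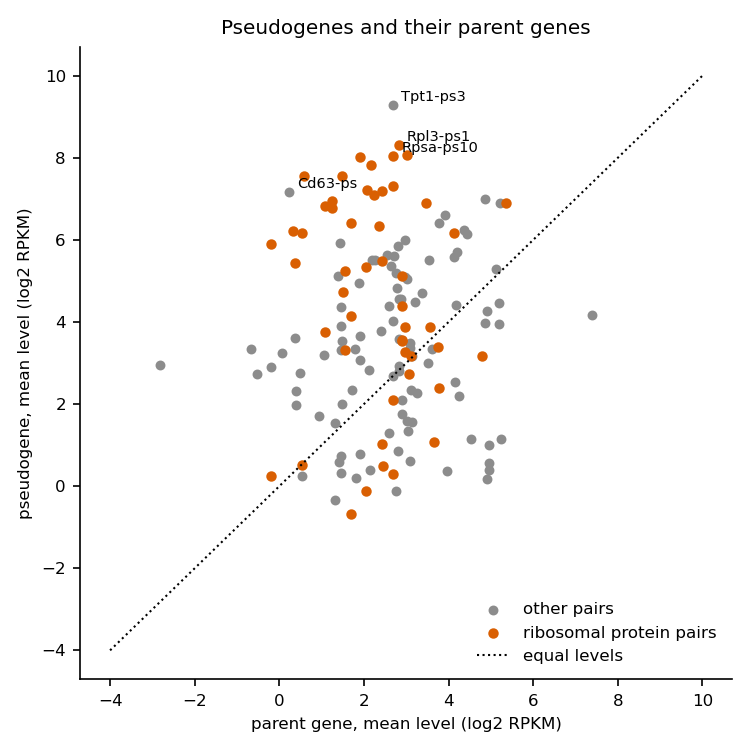
Mean log2 RPKM of 149 pseudogenes (vertical axis) against that of their parent genes (horizontal axis); orange points are ribosomal protein pairs and the dotted line marks equal levels. Most points lie above the line, and Tpt1-ps3 has the highest pseudogene level.

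To set tumour, stromal, matrix and immune genes beside each other, 50 lists with 735 distinct genes were used, of which 567 genes had a value. A list's level in a library is the median over its measured members, given as mean ± SD over the 3 libraries. In bulk tissue, fewer cells of a type and less RNA per cell cannot be told apart. The 4 highest lists were lysosome and iron genes at 5.65 ± 0.08, the cytoskeleton at 5.58 ± 0.08, translation factors at 5.39 ± 0.17 and chaperones at 5.20 ± 0.07. Of the 39 lists with at least 5 measured members, 26 lay above the median of all genes in all 3 libraries. Most neighbours in the order of levels cannot be separated: in 11 of the 38 neighbouring pairs the difference had the same sign in all 3 libraries.

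**Figure D3:**
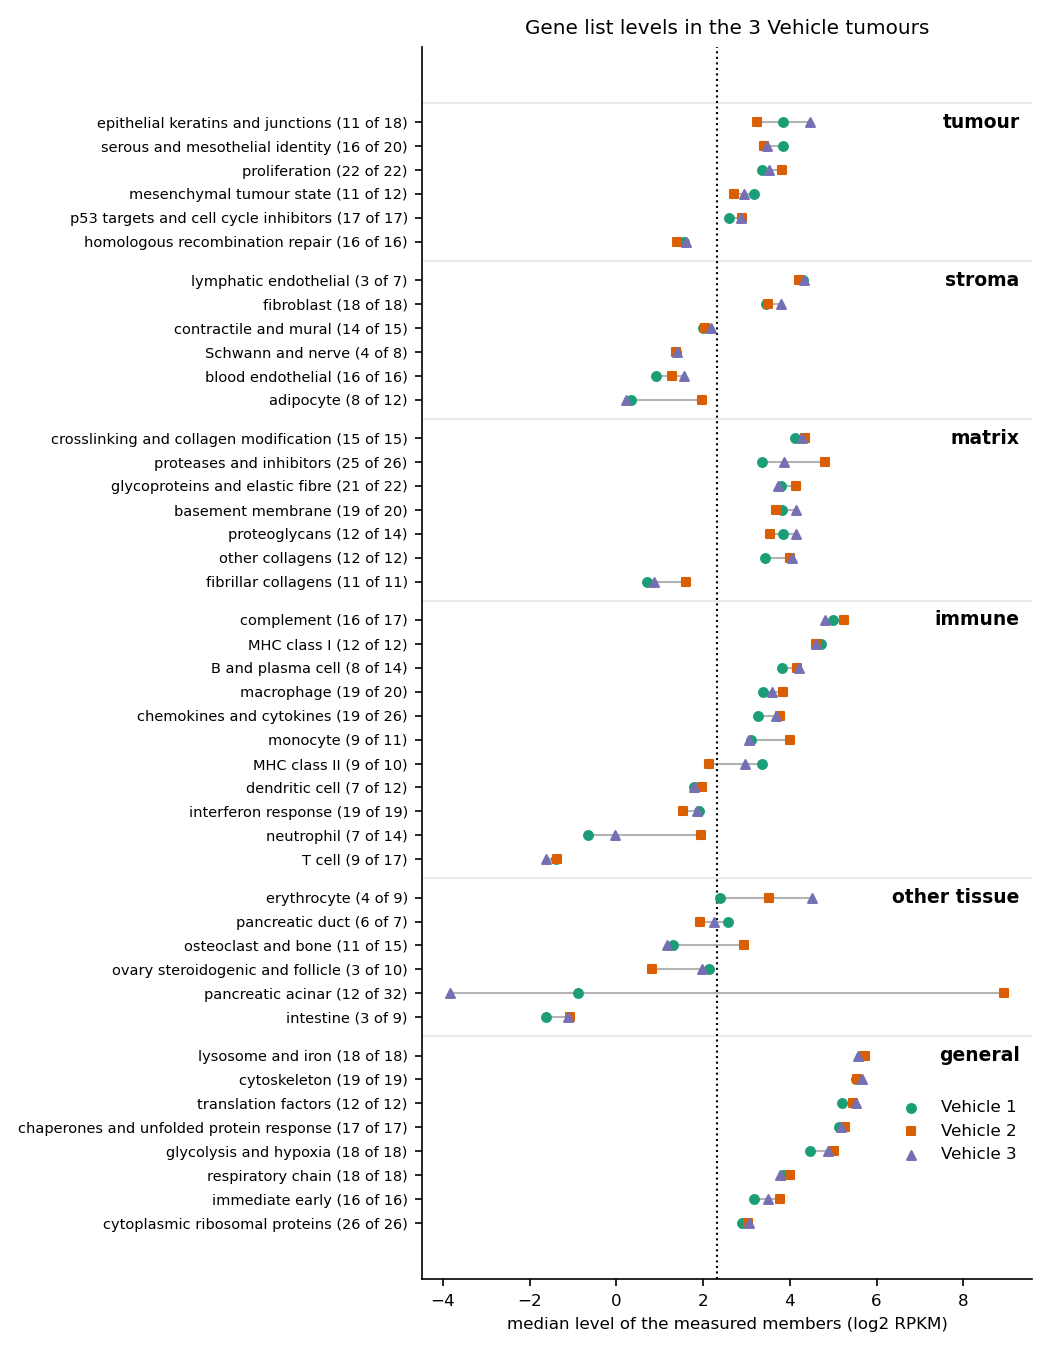
Level of each gene list with at least 3 measured members, as the median log2 RPKM of its members in each library, grouped by class; brackets give measured and listed members, and the dotted line is the median of all genes at 2.32. The acinar list spans the widest range, and T cell genes are the lowest list of the immune class.

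Several genes of the serous and mesothelial type were high, but others, Pax8 among them, were not. The 16 of 20 listed genes with a value had a level of 3.58 ± 0.24, and 3 of them had a mean below 0. Upk3b, a uroplakin that mesothelial cells express, was at 8.17, 7.51 and 8.19 and ranked 56 of all genes. Wt1, the transcription factor of the WT1 stain, on chromosome 2 at 105126529 to 105173616 (plus strand), was at 6.65, 6.13 and 6.46. Msln, mesothelin, was at 6.51, 5.78 and 6.41, and Upk1b, another uroplakin, was at 5.33, 5.63 and 5.11. Muc16, which encodes CA125, was at 5.75, 3.77 and 5.68, and Lrrn4, a mesothelial surface protein, was at 6.14, 4.34 and 5.48. In both of these Vehicle 2 was more than 1 log2 unit lower than the others.

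Pax8, the Müllerian lineage factor, was at -3.62, -2.09 and -3.89, and its mean ranked 16307 of 16344. Of the usual markers of high-grade serous cancer, the transcripts of WT1, mesothelin and CA125 thus lay above the median gene in every library and Pax8 lay far below it. Emx2, a homeobox factor of the urogenital tract, had the highest SD of the list with 1.68. It was at -0.24 in Vehicle 1 and 1.36 in Vehicle 3, and it was lowest in Vehicle 2. In 10 of the 16 genes Vehicle 2 was the lowest library, where 41.0% of all genes had their lowest value in Vehicle 2.

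Among epithelial genes the keratins Krt19 and Krt18 were highest. The 11 of 18 listed genes with a value had a level of 3.84 ± 0.61, or 4.15 without Vehicle 2. Krt19, a keratin of simple epithelia on chromosome 11 at 100140810 to 100148665 (minus strand), was at 7.77, 7.17 and 7.95, and Krt18 was at 6.93, 6.89 and 7.24. Krt8, the usual partner of Krt18, was lower at 4.23, 4.41 and 4.67. Its pseudogene Krt8-ps, 98.6% identical to it, was at 6.04, 5.93 and 6.47, so the level of Krt8 is uncertain. Krt7 was at 4.95, 4.20 and 5.11. Tjp1, the tight junction protein ZO-1, was at 5.22, 4.87 and 5.47. Epcam, an epithelial adhesion molecule, was at 3.50, 2.26 and 4.46 and Cdh1, E-cadherin, at 3.27, 3.23 and 4.06. Vehicle 3 was highest in 9 of the 11 genes (27.4% of all genes were highest in Vehicle 3). In 8 of the 11 Vehicle 2 was lowest, against 41.0% of all genes. Cldn3, a tight junction claudin, went the other way at -0.83, 2.16 and -0.26.

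Mesenchymal genes were present beside the epithelial ones. Vim, the intermediate filament vimentin, was at 8.53, 8.14 and 8.66 and so above Krt19 in each library. Cdh2, N-cadherin, was at 3.17, 2.71 and 2.94, the E-box binding repressor Zeb2 at 4.47, 4.96 and 4.63, and the hyaluronan receptor Cd44 at 3.97, 4.35 and 4.44. Twist2, a basic helix-loop-helix factor, varied most in this list at 0.42, 2.15 and -2.73. These genes are also made by fibroblasts and macrophages, and the share of each cell type was not tested.

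Proliferation genes were well above the median gene. All 22 listed genes had a value, and their level was 3.57 ± 0.23. Mki67, the proliferation antigen Ki-67, was at 5.58, 5.92 and 5.54, and Top2a, the topoisomerase of dividing cells, at 4.82, 5.46 and 5.14. Pcna, the sliding clamp of DNA replication, was at 5.28, 5.16 and 5.18. Its level is uncertain, because its pseudogene Pcna-ps2, 99.2% identical to it, was at 7.15, 6.69 and 6.90. The helicase subunit Mcm6 was at 5.47, 4.97 and 5.31 and the cyclin Ccna2 at 4.49, 5.58 and 4.70. Rrm2, a subunit of ribonucleotide reductase, varied most at 3.16, 4.81 and 3.43. In 14 of the 22 genes Vehicle 2 was the highest library (39.9% of all genes), and without Vehicle 2 the level of the list was 3.45.

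Genes of the p53 pathway and of DNA repair were lower. Trp53, the tumour suppressor p53, was at 2.48, 2.32 and 2.55, close to the median gene. Its target Cdkn1a, the cell cycle inhibitor p21, was at 1.79, 3.10 and 2.28, while the targets Ccng1 and Btg2 were higher at 5.26, 5.34 and 5.26 and at 5.36, 5.74 and 5.80. Cdkn2a, the locus of p16 and p19ARF on chromosome 4 at 89274471 to 89294653 (minus strand), was at 4.67, 4.46 and 4.68. Homologous recombination genes had a level of 1.52 ± 0.11, which was below the median gene. Brca1 was at 1.41, 1.30 and 1.16 and Brca2 at 2.82, 3.00 and 2.76. The kinases Atm at 3.96, 3.63 and 3.82 and Atr at 3.32, 3.14 and 3.24 led the list. Proliferation genes exceeded repair genes by 1.80, 2.44 and 1.93 log2 units in the 3 libraries. A read level does not show whether a gene carries a deletion or mutation, and none was looked for.

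Matrix lists lay between 3.8 and 4.3, except for fibrillar collagens. Collagen crosslinking and modifying enzymes were at 4.24 ± 0.12, proteases and inhibitors at 4.01 ± 0.74, glycoproteins at 3.89 ± 0.23, the basement membrane at 3.88 ± 0.24, proteoglycans at 3.83 ± 0.30 and non-fibrillar collagens at 3.83 ± 0.34. The fibrillar collagen list had a low median of 1.07 ± 0.47, or 0.80 without Vehicle 2, over a wide range of members. Col1a1, the main chain of type I collagen on chromosome 11 at 94936224 to 94953042 (plus strand), was at 7.49, 8.35 and 7.80, Col3a1, type III, at 7.29, 8.07 and 7.26, and Col1a2 between 6.71 in Vehicle 2 and 7.18 in Vehicle 3. Col5a2, a type V chain that helps start fibrils, was at 5.70, 6.83 and 5.75. Col2a1, the collagen of cartilage, was at -3.33, -0.75 and -2.26, at the other end of the list. The basement membrane list exceeded the fibrillar list by 3.10, 2.08 and 3.26 log2 units. The latter holds more low members, while its leading member Col1a1 was as high as the perlecan gene Hspg2, at 7.54, 7.19 and 7.51.

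In the basement membrane Lamb2 was at 6.64, 5.91 and 6.07, Lamc1 at 5.80, 6.06 and 5.98, both laminin chains, and Agrn, agrin, at 6.44, 5.37 and 6.29. Col4a4, a type IV collagen chain of specialised membranes, varied most at -4.09, -2.65 and -0.68. Among glycoproteins, Fn1 was followed by Sparc, a collagen-binding matricellular protein, at 7.37, 7.64 and 7.64, Spp1, osteopontin, at 6.90, 7.73 and 7.28, and Thbs1, thrombospondin 1, at 6.88, 6.71 and 7.40. Tnc, tenascin C, a matrix protein of remodelled tissue, was at 4.62, 6.64 and 3.32 and had the highest SD of its list. Bgn, the small proteoglycan biglycan, was at 7.56, 7.57 and 7.52, with an SD of 0.03 against a median SD of 0.18 over genes with a mean of at least 6. The syndecan Sdc4 was at 6.56, 6.62 and 6.78 and Dcn, decorin, at 6.24, 6.38 and 6.52. Of the type VI collagen genes, which form beaded filaments, Col6a1 was at 6.78, 6.53 and 6.30 and Col6a2 at 5.93, 5.89 and 5.67.

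The enzymes that shape collagen were led by P4hb, protein disulfide isomerase and subunit of prolyl hydroxylase, at 8.43, 8.39 and 8.55. Serpinh1, the collagen chaperone HSP47, was at 6.33, 6.32 and 6.22, Tgm2, a crosslinking transglutaminase, at 6.29, 5.66 and 6.39, and Lox, lysyl oxidase, at 5.65, 6.93 and 5.77. Among proteases and inhibitors, lysosomal cathepsins and inhibitors of metalloproteases were highest. The cathepsin genes Ctsl and Ctsb were at 7.26, 7.49 and 7.59 and at 6.93, 7.08 and 6.99. The metalloprotease inhibitors Timp2 and Timp3 were at 7.45, 6.87 and 7.41 and at 6.83, 7.28 and 6.93. Vehicle 2 was highest in 17 of the 25 protease and inhibitor genes, against 39.9% of all genes. In 18 of the 25 Vehicle 1 was lowest (29.8% of all genes were lowest in Vehicle 1). The level of this list was 3.62 without Vehicle 2.

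Fibroblast genes exceeded those of vessels. Fibroblast genes had a level of 3.59 ± 0.19, contractile and mural genes 2.08 ± 0.10 and blood endothelial genes 1.25 ± 0.32. The fibroblast list exceeded the endothelial list by 2.54, 2.20 and 2.25 log2 units and the mural list by 1.45, 1.46 and 1.62, so the order held in each tumour. Beside C3, its leading member, Serping1, the C1 inhibitor, was at 7.06, 6.72 and 6.81 and Islr, a marker of mesenchymal stroma, at 5.64, 5.80 and 4.74. Dpt, dermatopontin, varied most at 0.01, 3.08 and 0.33. Acta2, smooth muscle actin, was at 2.96, 3.55 and 3.60, and Tpm2, a muscle tropomyosin, at 3.41, 4.06 and 3.74. Pecam1, an endothelial adhesion molecule, was at 1.41, 1.98 and 1.96, lower than the VEGF receptor genes Flt1 at 4.59, 5.07 and 4.80 and Kdr at 4.51, 3.95 and 3.96. Vehicle 1 was lowest in 13 of the 16 endothelial and 11 of the 14 mural genes, against 29.8% of all genes. Adipocyte genes had a level of 0.85 ± 0.98, or 0.28 without Vehicle 2, with Lpl, lipoprotein lipase, at 6.09, 5.99 and 5.43 and Plin1, the coat protein of fat droplets, at -5.11, -2.09 and -2.45.

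Among immune genes, complement and class I presentation genes were highest and T cell genes lowest. Complement had a level of 5.02 ± 0.23 and class I presentation genes 4.64 ± 0.07. B and plasma cell genes were at 4.06 ± 0.22, macrophage genes at 3.61 ± 0.23, class II presentation genes at 2.82 ± 0.62 and T cell genes at -1.46 ± 0.14. The B and plasma cell level rests on 8 of 14 listed genes with means from -2.27 to 7.14, of which 3 were below 0. Which cells made these genes was not tested, so the level does not rank B cells above macrophages. Without Vehicle 2 the macrophage level was 3.48. Macrophage genes exceeded T cell genes by 4.78, 5.22 and 5.21 log2 units. The macrophage list could not be ordered against the fibroblast list, with differences of -0.07, 0.35 and -0.22, nor against the serous and mesothelial list.

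Lyz2, the lysozyme of macrophages and neutrophils on chromosome 10 at 117277331 to 117282321 (minus strand), was at 7.30, 8.21 and 7.78 and followed Apoe. C1qa and C1qb, chains of the complement starter C1q, were at 6.16, 6.62 and 5.90 and at 6.11, 6.57 and 5.96. Csf1r, the receptor for the macrophage growth factor CSF1, was at 4.85, 5.47 and 4.59, and Adgre1, the F4/80 antigen, at 2.33, 2.77 and 2.13. Cd163, a scavenger receptor of haemoglobin complexes, varied most at -1.64, 1.29 and -2.90. Vehicle 2 was the highest library in 17 of the 19 genes, against 39.9% of all genes. It was the lowest in the other 2, Apoe and Gpnmb, a glycoprotein of lysosome-rich macrophages named after its values were seen. Monocyte genes were at 3.39 ± 0.54, or 3.08 without Vehicle 2, with Ccr2, the receptor of CCL2, at 3.53, 4.52 and 3.80 and F13a1, a coagulation factor chain, at 3.11, 4.79 and 3.43.

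The class II genes, which display antigen to helper T cells, ranged from among the highest of all genes to near 1 RPKM. H2-Aa was at 8.72, 7.80 and 8.35, Cd74, the invariant chain, at 8.58, 7.44 and 8.07 and H2-Ab1 at 7.63, 6.27 and 7.11. H2-DMa, a peptide exchange factor, was at 4.10, 3.26 and 3.50, and Ciita, the master activator of class II genes, at 3.35, 1.59 and 2.97. Vehicle 1 was highest in all 9 measured genes (32.5% of all genes were highest in Vehicle 1). In 7 of them Vehicle 2 was lowest, against 41.0% of all genes. Vehicle 2 was thus the highest library for most macrophage genes and the lowest for most class II genes. Without it the class II level was 3.16 against 2.82 with it. Class I genes varied little: beside H2-D1, B2m, the light chain of all class I molecules, was at 8.33, 8.17 and 8.31, H2-K1 at 8.11, 7.88 and 8.08 and H2-Q4 at 6.86, 6.56 and 6.56.

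Interferon response genes had a level of 1.77 ± 0.21, or 1.89 without Vehicle 2, below class I genes by 2.81, 3.08 and 2.73 log2 units. Gbp2, an interferon-induced GTPase, was at 5.04, 3.92 and 4.68, Irf1, a transcription factor, at 4.53, 4.54 and 4.46, Oasl2, an antiviral protein, at 4.54, 3.55 and 4.31, and Bst2, tetherin, at 4.23, 3.47 and 4.04. Vehicle 2 was lowest in 16 of the 19 genes, against 41.0% of all genes. Chemokine and cytokine genes were at 3.57 ± 0.27, led by Cxcl16 at 6.35, 5.88 and 6.26, the macrophage growth factor Csf1 at 4.63, 5.29 and 4.54, Ccl6 at 4.01, 5.32 and 4.88 and Cxcl12 at 4.37, 5.13 and 4.69. Cxcl5, which attracts neutrophils, varied most at 1.89, 4.05 and 1.57.

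T cell genes were at 1 RPKM or below with few exceptions. Trac, the constant segment of the T cell receptor alpha chain, was at 1.36, 2.15 and 1.26, and Cd3e, a receptor signalling chain, at -0.81, -0.40 and -0.98. Cd4 was at -1.40, -0.82 and -0.85. Of 17 listed T cell genes 9 had a value, and 7 of those had a mean below 0. A single gene of 12 on the natural killer and cytotoxic list had a value, the chemokine Ccl5 at -0.41, -0.39 and -1.46. Dendritic cell genes were at 1.86 ± 0.11, with the actin bundler Fscn1 at 3.48, 4.04 and 3.44. That gene is also made by tumour cells.

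Antibody constant genes were high in some tumours and uneven between them. On the B and plasma cell list, 8 of 14 genes had a value. Of these 8, Vehicle 2 was highest in 5 and lowest in 3, against 39.9% and 41.0% of all genes. Igkc, the constant segment of kappa light chains on chromosome 6 at 70726435 to 70726966 (plus strand), was at 7.24, 6.14 and 8.03. Jchain, which joins antibody polymers, was at 3.97, 3.31 and 4.57, and Ighm, the heavy chain of IgM, at 3.66, 5.62 and 4.72. Igha, the heavy chain of IgA, was at 6.54, 4.81 and 7.01, and Ighg1, that of IgG1, at 4.25, 1.18 and 5.20. The IgA and IgG1 genes were lowest in Vehicle 2, and the IgM gene was highest there. Cd79b, a chain of the B cell receptor complex named after its values were seen, was at -0.97, 0.16 and -0.17.

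Some single variable segments differed more. Ighv2-9-1, a heavy chain variable segment, was at 0.11, -3.59 and 3.88, and Igkv1-117, a kappa segment, at 0.73, -0.26 and 4.03. Of the 23 immunoglobulin segments with a value, constant and variable ones together, 13 had an SD above 1, while 3.15% of all genes did. Vehicle 3 was highest in 14 of the 23 and Vehicle 2 lowest in 16, against 27.4% and 41.0% of all genes. The 23 segments took 0.160%, 0.0861% and 0.273% of the summed RPKM of Vehicle 1, 2 and 3. By mean level, the constant genes Igkc and Igha were the highest of them. Variable segments resemble each other in sequence, so the split of reads between them is uncertain.

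Pancreatic acinar genes varied most between the 3 tumours among genes with a mean of at least 0. Acinar cells make the digestive enzymes of the exocrine pancreas. In mice their enzyme genes are switched on by a complex built around the factor PTF1A, which binds a paired E-box and TC-box in enzyme promoters. Of 32 listed acinar genes, 20 had no value. The filter on low values is not given, so acinar genes may have entered the table through Vehicle 2 alone. Their count in that library is therefore a description and not a test. All 12 measured acinar genes were more than 2 log2 units above both other libraries in Vehicle 2, where 109 genes in all (0.667%) were. The 250 bases before the start of 4 of them are printed because these 4 hold both motifs searched. They come from RefSeq (GRCm38.p6) and read 5′ to 3′ on the strand of the gene. Capitals mark the E-box letters CACCTG and the TC-box letters TTTCCC, on either strand, so CAGGTG and GGGAAA are marked too.
Cel: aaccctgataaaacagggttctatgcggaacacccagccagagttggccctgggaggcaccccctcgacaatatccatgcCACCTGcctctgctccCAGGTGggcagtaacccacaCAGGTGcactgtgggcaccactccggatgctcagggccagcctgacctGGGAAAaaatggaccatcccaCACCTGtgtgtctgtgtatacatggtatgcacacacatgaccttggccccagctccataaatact
Cela1: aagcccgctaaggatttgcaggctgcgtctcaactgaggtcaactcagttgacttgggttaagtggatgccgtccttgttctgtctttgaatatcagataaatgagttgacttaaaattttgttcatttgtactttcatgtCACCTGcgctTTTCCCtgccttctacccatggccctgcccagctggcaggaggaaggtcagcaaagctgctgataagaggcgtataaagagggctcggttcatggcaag
Cela2a: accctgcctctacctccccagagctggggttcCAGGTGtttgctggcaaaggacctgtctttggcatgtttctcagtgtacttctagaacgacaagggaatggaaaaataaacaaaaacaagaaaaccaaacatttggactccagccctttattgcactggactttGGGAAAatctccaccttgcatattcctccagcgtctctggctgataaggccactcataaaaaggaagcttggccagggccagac
Prss2: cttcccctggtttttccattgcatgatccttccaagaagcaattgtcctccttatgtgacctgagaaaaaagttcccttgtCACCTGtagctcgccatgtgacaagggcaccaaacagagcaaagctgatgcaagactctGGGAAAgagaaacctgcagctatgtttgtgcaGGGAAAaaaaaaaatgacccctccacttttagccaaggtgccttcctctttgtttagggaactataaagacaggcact

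The windows lie at chr2:28563404-28563653 (minus strand) for Cel, chr15:100687921-100688170 (minus) for Cela1, chr4:141826006-141826255 (minus) for Cela2a and chr6:41521526-41521775 (plus) for Prss2. All 12 acinar genes with a value had a promoter entry. CACCTG was in 8 of the 12 promoters and in 17.2% of 32851 promoters of the same length, and TTTCCC was in 6 of 12 and in 21.9%. Both were in the 4 printed promoters and in 3.61% of all. No match overlapped another in the printed promoters. A match in these letters is a description and not a binding site.

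The gene Prss2, a trypsinogen, was at 0.25, 9.44 and -4.24 in Vehicle 1, 2 and 3. Ctrb1, chymotrypsinogen B on chromosome 8 at 111686519 to 111691010 (minus strand), was at 0.94, 9.55 and -4.02. Cpa1 and Cpb1, carboxypeptidases, were at -0.69, 9.35 and -4.09 and at -2.14, 8.58 and -5.76. Cpb1 had the highest SD of all genes with a mean of at least 0, at 7.45. Pnlip, the main pancreatic lipase, was at -0.62, 9.27 and -3.65, and Cel, a lipase for cholesterol esters, at -1.22, 9.14 and -4.35. The elastase genes Cela1 and Cela2a were at 0.66, 8.72 and 0.86 and at -1.93, 8.86 and -4.48. Bhlha15, the factor MIST1 that shapes secretory cells, reached 3.37 in Vehicle 2 against -1.06 and -1.56. In 11 of the 12 genes Vehicle 3 was lowest (29.0% of all genes were lowest in Vehicle 3). The measured acinar genes took 0.0047% of the summed RPKM in Vehicle 1, 2.92% in Vehicle 2 and 0.0021% in Vehicle 3.

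Vehicle 2 also carried other genes known from the exocrine pancreas or its surroundings. Dmbt1, a secreted scavenger protein of gland epithelia, was at -1.91, 8.82 and -3.42, and Cckar, the receptor for the hormone that triggers enzyme release, was at -1.08, 4.85 and -0.97. None of 13 listed islet genes had a value. Pancreatic duct genes were not higher in Vehicle 2: their level was 2.57, 1.93 and 2.26, and Cftr, the duct chloride channel, was at 1.93, 0.04 and 1.45.

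Genes known from osteoclasts and bone were highest in Vehicle 2 in all 11 of 15 listed genes with a value (39.9% of all genes were). Of the 11, 4 were more than 2 log2 units above both other libraries, where 0.667% of all genes were. A mean below 0 was found in 3 of the 11, and low genes may have entered the table through Vehicle 2 alone. Ctsk, cathepsin K, the collagen-cleaving protease of osteoclasts, was at 2.61, 6.45 and 2.82. Mmp9, gelatinase B on chromosome 2 at 164940780 to 164955850 (plus strand), was at 0.48, 5.94 and 1.14. Acp5, tartrate-resistant acid phosphatase, was at 3.33, 5.62 and 3.37. Runx2, a factor of bone-forming cells, was at 2.22, 2.93 and 2.25. The list level was 1.81 ± 0.98 with all libraries and 1.25 without Vehicle 2. Macrophages and fibroblasts of other tissues also express several of these genes, and the acinar genes were high in the same library. The part that either plays in these values was not tested.

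Neutrophil genes followed the same order, with Vehicle 2 highest in all 7 of 14 listed genes that had a value (39.9% of all genes were). The same limit holds for them, with 2 of the 7 at a mean below 0. Lcn2, lipocalin 2, was at 1.71, 3.08 and 2.43, Il1b, interleukin 1 beta, at 1.02, 2.12 and 1.61, and S100a8, a calcium-binding protein of neutrophils, at -0.66, 1.95 and -0.03. Mmp8, the neutrophil collagenase, varied most at -1.11, 2.43 and -1.32. The list level was 0.42 with all libraries and -0.35 without Vehicle 2. With the acinar list left out and the 3 libraries set to a common distribution again, Vehicle 2 lay above the mean of the others by 1.82 for neutrophil genes, 1.58 for osteoclast and bone genes and 0.69 for macrophage genes, while the difference for class II genes was -0.57.

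**Figure D4:**
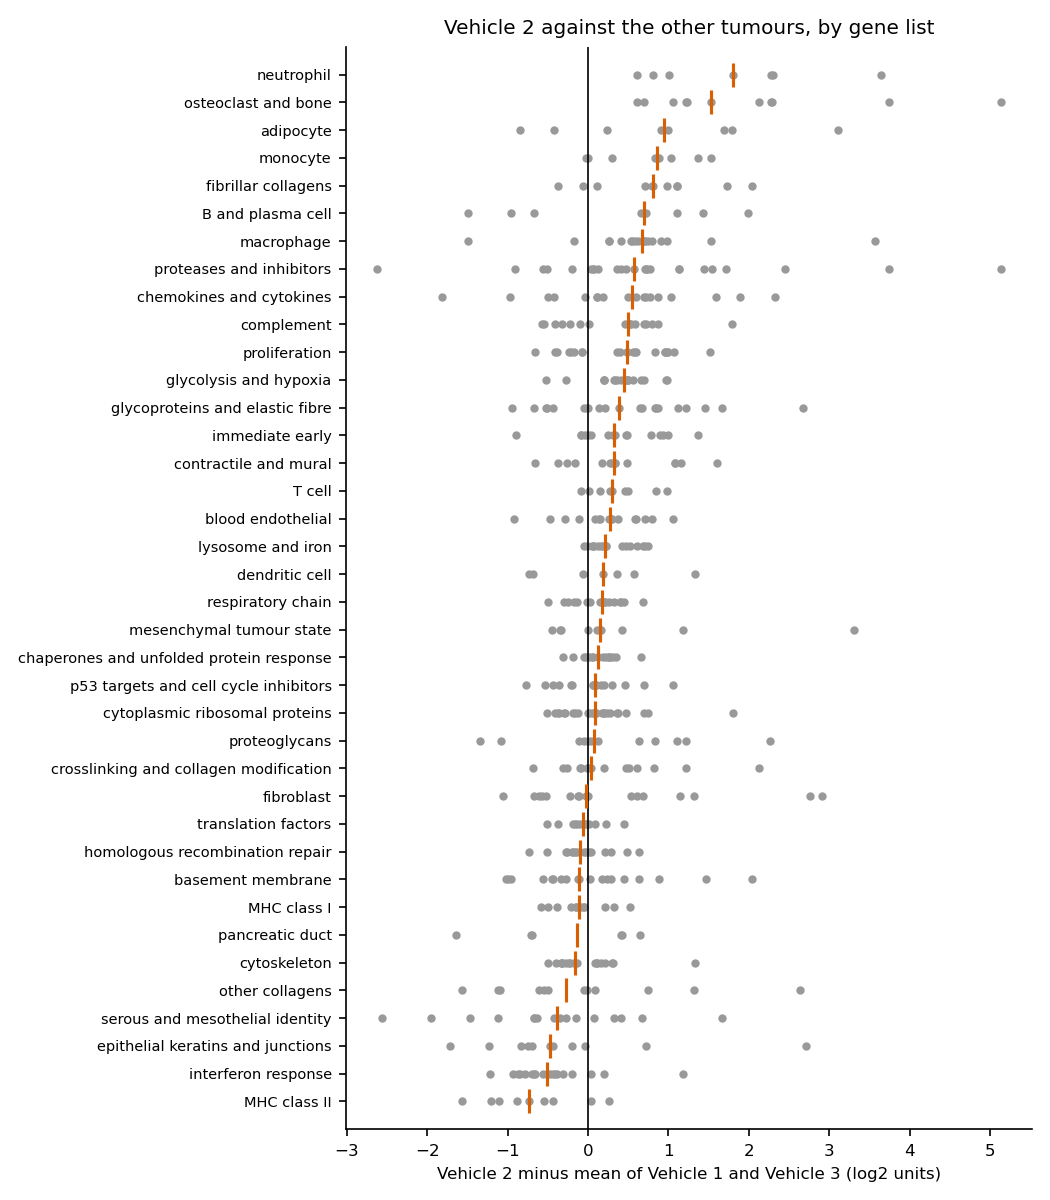
Difference between Vehicle 2 and the mean of Vehicle 1 and Vehicle 3 (log2 units, horizontal axis) for every measured member (grey points) and its median (orange bar) in each list with at least 5 measured members, the acinar list left out. Neutrophil and osteoclast genes lie to the right of 0 throughout, and class II and interferon genes lie mostly to the left.

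Red cell genes gave another order. Hbb-bs, an adult beta globin, was at 4.05, 5.82 and 6.42, and Hba-a1, an alpha globin, at 3.60, 4.28 and 5.48. Vehicle 1 was lowest and Vehicle 3 highest in all 4 measured genes of 9, against 29.8% and 27.4% of all genes. Liver, muscle, gut and follicle lists had at most 3 measured genes each: Ahsg, a plasma protein of the liver, was at 4.25, 3.83 and 3.41, and Inha, the inhibin alpha subunit of ovarian follicles, at 3.00, 1.94 and 2.45.

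Glycolysis and hypoxia genes were at 4.79 ± 0.29, with the glycolytic enzyme Tpi1 at 6.56, 7.22 and 6.91, the angiogenic factor Vegfa at 5.86, 6.34 and 6.44 and Ndrg1, a gene induced by low oxygen, at 6.05, 5.98 and 6.45. Vehicle 1 was lowest in 17 of the 18 genes of that list and Vehicle 2 highest in 15, against 29.8% and 39.9% of all genes. Of the chaperones, Hsp90ab1, a cytosolic HSP90, was at 8.48, 8.22 and 8.60 and Hspa5, the endoplasmic reticulum chaperone BiP, at 8.50, 8.43 and 8.33. Fth1, ferritin heavy chain, was at 7.99, 7.95 and 8.01 and Psap, the precursor of the saposins, at 7.52, 7.47 and 7.32. Immediate early genes, which respond to handling of tissue among other things, were at 3.48 ± 0.30 and led by Jund at 6.30, 5.37 and 6.25.

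Over all genes the spread between tumours was small and concentrated in few genes. The median SD was 0.22 log2 units and the 95th percentile 0.84. An SD above 1 was found in 515 genes, and 61 genes had an SD above 2. Over Vehicle 1 and Vehicle 3 alone the count above 1 was 148, but an SD over fewer libraries is not the same measure. Low genes varied most: 11.96% of the 2316 genes with a mean below 0 had an SD above 1, against 0.48% of the 416 genes with a mean of at least 6. Of the 20 genes with the highest SD and a mean of at least 0, 12 were measured acinar genes. The others included Lrg1, a secreted glycoprotein of inflamed tissue, at 0.62, 4.99 and -0.11, Gls2, a glutaminase, at -1.23, 2.83 and -1.38, and Akr1cl, an aldo-keto reductase, at 3.17, -1.20 and 2.61.

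**Figure D5:**
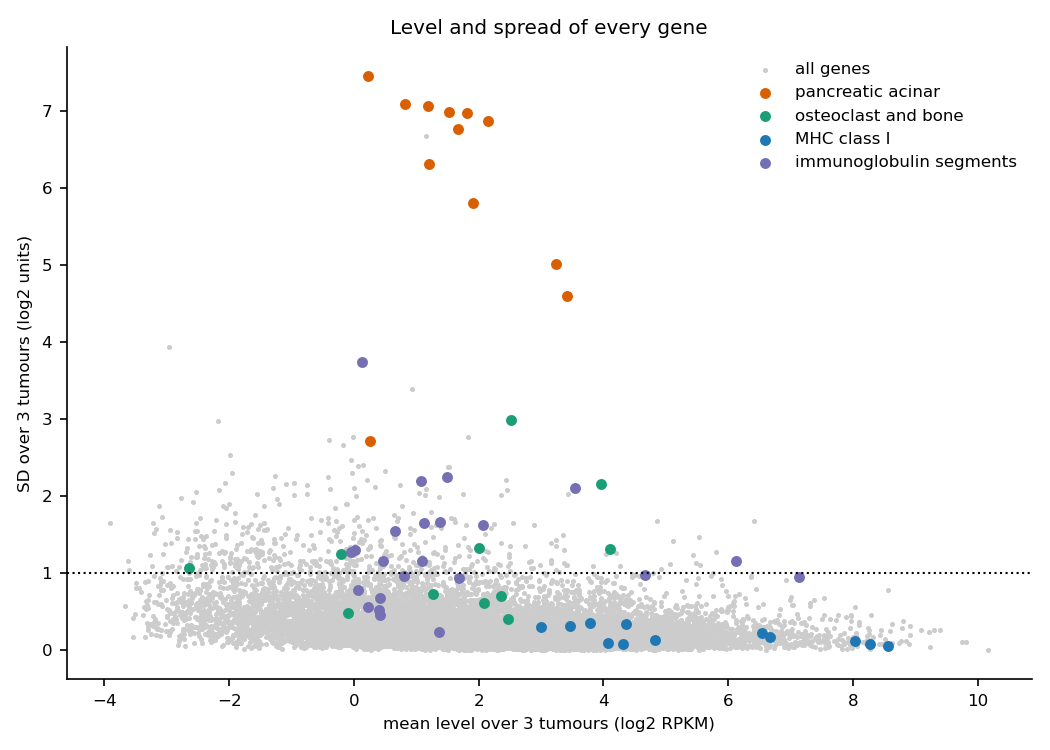
SD over the 3 tumours (log2 units, vertical axis) against mean level (log2 RPKM, horizontal axis) for all 16344 genes, with 4 groups in colour; the dotted line marks an SD of 1. All 12 acinar genes lie above the line, and all 12 class I genes lie below it.

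The steadiest genes with a mean of at least 4 had SDs near 0.01. Cdv3, a gene of little known function, was at 5.21, 5.20 and 5.20, Ndufb9, a subunit of respiratory complex I, at 4.80, 4.79 and 4.79, and Chmp5, a subunit of the ESCRT-III membrane scission complex, at 4.04, 4.02 and 4.03. Mob1a, a Hippo pathway cofactor, was at 5.55, 5.53 and 5.53, Crk, a signalling adaptor, at 4.84, 4.82 and 4.82, and Pum2, an RNA-binding repressor, at 4.81, 4.82 and 4.83. Over all levels, 16.2% of genes had an SD below 0.1.

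Each library had its own genes at a distance from both others. Vehicle 1 had 5 genes more than 2 log2 units above both others (0.0306%) and 4 below (0.0245%), and Vehicle 3 had 9 above (0.0551%) and 11 below (0.0673%). Acinar genes were among these 11, such as Ctrb1 at -4.02 and Prss2 at -4.24 in Vehicle 3. Vehicle 2 had 109 above and 69 below (0.422%). The lists held 567 of the 16344 genes and were chosen with earlier results of these data known. Of the 109, 29 were in a list, 12 of them in the acinar list, and none of the 69 was. With a mean of at least 0 required, 57 and 41 were left.

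Genes higher in Vehicle 2 but in no list included signalling and matrix-related genes, which were chosen after their values were seen. Grem1, an antagonist of bone morphogenetic proteins, was at -0.30, 4.21 and 0.64, and Bmp2, such a protein, at 2.59, 5.74 and 1.96. Adam12, a metalloprotease of remodelling tissue, was at 1.49, 4.66 and 0.92, and Cxcl13, a chemokine for B cells, at 1.78, 4.91 and 0.64. Ptgfr, a prostaglandin receptor, was at 0.29, 3.65 and 0.14.

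Among genes with a mean of at least 0, Akr1cl lay farthest below both other libraries in Vehicle 2. Ctnna2, the neural alpha catenin on chromosome 6 at 76881637 to 77979699 (minus strand), was at 3.74, 0.05 and 3.56. Inside its span lie 6 unnamed models on the same strand, all of them more than 2 log2 units lower in Vehicle 2, so these 7 features share a locus and do not count as separate observations. Igfbp5, a binding protein of insulin-like growth factors also chosen after its values were seen, was at 7.60, 4.49 and 7.16. Itm2a, a membrane protein of differentiating cells, was at 6.39, 3.83 and 6.38, Nos1, neuronal nitric oxide synthase, at 4.38, 1.64 and 4.05, and Ptgds, prostaglandin D synthase, at 4.08, 1.58 and 4.04. These were likewise chosen after their values were seen.

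Vehicle 1 and Vehicle 3 differed from the rest in few genes. In Vehicle 1, Nxf3, an export factor of the NXF family, was at 1.82 against -0.43 and -0.62, and Dock3, a guanine exchange factor known from neurons, was at 2.32 against 0.08 and -0.46. Car3, a carbonic anhydrase of fat and muscle, was lowest there at -1.60 against 1.60 and 0.26, as was Prrx1, a mesenchymal homeobox factor, at 1.50 against 3.68 and 3.24. In Vehicle 3 the genes farthest above were immunoglobulin segments, followed by Aard at 2.99 against 1.31 and -0.60 and the macrophage metalloelastase Mmp12 at 3.27 against 1.67 and -0.15. Itih2, a hyaluronan-binding plasma protein, was lowest in Vehicle 3 at -2.04 against 2.05 and 0.99.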

How the data were processed

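RNA of 3 Vehicle tumours was sequenced, per the labels' protocols, from libraries depleted of ribosomal RNA. The deposited values are log2 RPKM in 1 table. Its title names cqn, a method of normalization that adjusts for gene length and GC content. BWA 0.7.15-r1140 and HTSeq and the builds mm10 and GRCm38 are named in the submitters' processing notes. Not given in the sources used here are the annotation release, the strand setting, any filter on low values and the treatment of multiply matching reads. The 3 AZD7507 columns were not used. Depth is unknown, so no counting interval or floor is given, and precision comes only from the spread between libraries.

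Values were used as deposited, with no pseudocount or filter, in Python 3.11.15 with pandas 2.3.3 and numpy 2.4.6, and figures were drawn with matplotlib 3.10.9. Symbols were found for 16306 of 16344 identifiers, and coordinates are those of GENCODE M21 on GRCm38, which may not be the authors' release. SDs are over the 3 libraries, or over those left where a library was left out. A list's level is the median of its measured members, and 25 genes are in more than 1 list. The counting of genes past a gap or an SD was tested on simulated data.

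Members and lists were chosen with earlier results of these data known. Named genes are the 20 with the highest mean, the 20 with the highest SD at a mean of at least 0, the 10 with the lowest SD at a mean of at least 4, the 10 farthest above and below in each library, the 4 highest and the most variable member of each list, and a fixed set of markers. Other genes, further list members included, were picked with their values in view. The alternatives tried were pseudocounts of 0.1 and 1, a minimum mean of 0, median centring, quantile normalization, a gap of 3 log2 units, means in place of medians, and leaving out each library. Leaving out the acinar list was added after seeing the data. Values of some listed genes are not reported here.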

Additional observations from a re-analysis of the deposited data

How the results depend on the processing

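Counts of variable genes depended on how low values were treated. The 515 genes with an SD above 1 became 238 with a mean of at least 0 required, 334 with a pseudocount of 0.1 and 107 with a pseudocount of 1. Leaving out each library in turn, with the SD taken over those left, gave 148 to 772, and the lowest of these was without Vehicle 2. Median centring gave 515, quantile normalization 516, and the acinar list left out gave 506. For genes more than 2 log2 units above both others, Vehicle 1 went from 5 to 2 with a mean of at least 0, 2 with a pseudocount of 0.1, 0 with a pseudocount of 1 and 0 at a gap of 3. Vehicle 2 went from 109 to 57 with a mean of at least 0, 33 with a pseudocount of 1 and 36 at a gap of 3. Vehicle 3 went from 9 to 4 with a mean of at least 0, 4 with a pseudocount of 0.1, 3 with a pseudocount of 1 and 2 at a gap of 3. For genes below both others, Vehicle 1 went from 4 to 0 with a mean of at least 0, 1 with a pseudocount of 0.1, 0 with a pseudocount of 1, 0 at a gap of 3 and 2 with the acinar list left out. Vehicle 2 went from 69 to 41, 34 and 9 with a mean of at least 0, a pseudocount of 0.1 and a pseudocount of 1, and to 16 at a gap of 3. Vehicle 3 went from 11 to 0 with a pseudocount of 1 and to 5 with the acinar list left out. Ctrb1, Prss2, Cpb1, Cpa1, Cel, Pnlip and Cela2a were among the 11 and are on the acinar list, so leaving it out removes them. The cause of the other changes was not tested.

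The ranking by linear RPKM and each ranking without 1 library shared 19 or 20 of the 20 most abundant genes. List levels moved by more than 1 SD for 26 of 44 lists with means in place of medians for 13 of 44 with a pseudocount of 1 and for 13 of 41 with a mean of at least 0. Of 260 recomputed differences between Vehicle 2 and the other libraries by list, 2 changed sign, both of them small. The cytoskeleton went from -0.16 to 0.03 with the acinar list left out, and erythrocyte genes went from 0.06 to -0.0028 with a pseudocount of 1. No paired analysis was possible because the Vehicle tumours are 1 group. With no counts, the depth behind low values could not be judged.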
